A study of Homo sapiens with 36 samples.

Results

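The regions described are the stretches of the genome at which MTF2 was called both in control DU145 cells and in DU145 cells depleted of the long isoform of PHF19. They were chosen by the MTF2 peaks themselves. Peaks of both replicates of a condition were merged where they overlapped by at least 1 bp, merged regions with a peak of each replicate were kept, and a control region was counted as shared if it overlapped such a region of the depleted cells by at least 1 bp. Of 1474 MTF2 regions of control cells, 1339 (90.8%) met this rule, out of 3265 regions called in either condition. Since MTF2 peaks of both conditions selected them, their MTF2 values are given as a description, with no test. DU145 cells are an established line of human prostate cancer that was isolated from a metastasis to the brain. The control cells (shCTR) carried a control short hairpin RNA, and the depleted cells (shPHF19L#4) carried 1 hairpin directed at the long isoform of PHF19. ChIP-seq reads out the DNA that an antibody pulls down together with a chromatin protein, and peaks are the places where such reads exceed those of the matching control. MTF2 and the histone mark H3K27me3 were followed in both conditions, and PHF19, EZH2 and SUZ12 in shCTR cells only, with 2 replicates of each. Peak lists of PRC2 factors other than MTF2 under shPHF19L#4, input libraries and RNA-seq were not analysed here, so the depletion itself was not checked.

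MTF2 and PHF19 belong to the Polycomb-like proteins, which join the Polycomb repressive complex PRC2 and help to bring it to chromatin. They bind unmethylated DNA rich in CG dinucleotides through their extended homology domain, and recognise histone H3 methylated at lysine 36 through their Tudor domain. EZH2 is the catalytic subunit of PRC2 and SUZ12 a scaffold subunit that the complex needs. H3K27me3, the trimethylated lysine 27 of histone H3, is the mark that PRC2 deposits, and it covers silent genes for developmental regulators in many cell types.

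The libraries differed widely in the number of peaks. In shCTR cells, 2516 MTF2 peaks were listed for replicate 1 and 32254 for replicate 2, which covered 5.98 and 46.6 Mb. In shPHF19L#4 cells, there were 4216 and 34623 peaks, covering 11.0 and 59.0 Mb. In both conditions, replicate 1 thus held far fewer peaks and set most of the limits on which regions were shared. H3K27me3 peaks covered 108 and 30.4 Mb in the shCTR replicates and 96.9 and 159 Mb in the shPHF19L#4 replicates. Read totals are not part of the lists. The depth of each library is therefore unknown, and no counting error can be given. The methods of the study give the same MACS settings for every replicate but no version, and the replicate 1 lists of MTF2 and PHF19 hold no MACS scores. Whether peak calling differed between replicates is therefore not known.

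The sequences below come from GRCh37, the build of the peaks, and are printed on the plus strand. Each is the 300-base window with the most CG dinucleotides in a shared region, outside annotated UTRs, and CG is in capitals. They show the widest region, regions that widened most among 1-to-1 pairs (1 region of each condition that overlap each other alone) and 1 without a peak in the PHF19, EZH2, SUZ12 and H3K27me3 lists analysed. The PAX2 window lay in an intron of PAX2 at chr10:102507469-102507768 and held 35 CG dinucleotides. The UNCX window, between genes at chr7:1269379-1269678, held 46. The DISP3 window, between genes at chr1:11629667-11629966, held 14. The NALF2 window, in an exon at chrX:68725235-68725534, held 40.
PAX2: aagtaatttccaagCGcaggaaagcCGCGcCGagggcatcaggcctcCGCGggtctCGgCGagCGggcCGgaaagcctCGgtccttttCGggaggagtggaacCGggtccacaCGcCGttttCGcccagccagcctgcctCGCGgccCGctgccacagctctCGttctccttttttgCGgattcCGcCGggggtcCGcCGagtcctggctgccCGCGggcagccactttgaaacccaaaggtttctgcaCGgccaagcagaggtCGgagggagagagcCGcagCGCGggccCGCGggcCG
UNCX: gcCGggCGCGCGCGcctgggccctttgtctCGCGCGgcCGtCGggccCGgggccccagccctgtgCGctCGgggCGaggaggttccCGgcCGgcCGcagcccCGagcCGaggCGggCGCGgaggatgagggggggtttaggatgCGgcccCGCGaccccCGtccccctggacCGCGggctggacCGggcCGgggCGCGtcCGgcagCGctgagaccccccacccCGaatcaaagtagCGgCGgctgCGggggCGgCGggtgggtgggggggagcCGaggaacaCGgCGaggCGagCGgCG
DISP3: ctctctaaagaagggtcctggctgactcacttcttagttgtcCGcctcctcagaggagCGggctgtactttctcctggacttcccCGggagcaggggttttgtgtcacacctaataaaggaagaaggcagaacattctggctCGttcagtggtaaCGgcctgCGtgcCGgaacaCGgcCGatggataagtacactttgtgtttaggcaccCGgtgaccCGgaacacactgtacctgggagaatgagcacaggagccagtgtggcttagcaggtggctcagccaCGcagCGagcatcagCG
NALF2: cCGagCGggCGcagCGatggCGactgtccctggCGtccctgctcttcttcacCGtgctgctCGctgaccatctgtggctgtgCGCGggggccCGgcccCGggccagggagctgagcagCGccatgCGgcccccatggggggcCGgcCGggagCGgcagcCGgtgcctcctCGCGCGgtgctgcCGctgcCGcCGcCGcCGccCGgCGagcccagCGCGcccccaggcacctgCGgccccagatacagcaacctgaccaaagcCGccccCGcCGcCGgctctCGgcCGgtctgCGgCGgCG

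The richest windows of shared regions included some like those of UNCX and NALF2 and others with fewer CG dinucleotides, like that of DISP3. The richest 300-base window of a shared region held a median of 39 CG dinucleotides, with quartiles of 21.5 and 47. The same median was 30 in the 1825 regions called in shPHF19L#4 cells alone and 7 in the 135 regions called in shCTR cells alone. Windows centred on the start sites of protein-coding transcripts, which were not searched for their richest stretch, held a median of 20. Over their whole length, the shared regions held a median of 4.45 CG per 100 bases, against 3.09 in shPHF19L#4-only regions, 0.879 in shCTR-only regions and 2.74 in the promoters of all protein-coding transcripts, 2.5 kb to each side of the start. Shared regions over a promoter held a median of 5.11 CG per 100 bases, and those elsewhere 1.91. The median GC content was 55.5% in shared regions, 52.8% in shPHF19L#4-only regions and 43.6% in shCTR-only regions.

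Most shared regions were matched in a simple way between conditions. Of the 1339, 1268 (94.7%) formed pairs in which 1 shCTR region overlapped 1 shPHF19L#4 region and no other. In shPHF19L#4 cells, 1311 of 3136 MTF2 regions (41.8%) overlapped a shared region. Of the shared regions, 992 (74.1%) lay whole inside 1 shPHF19L#4 region, and 2 were covered for under 50% of their length. In 32 cases a shPHF19L#4 region joined several shared regions. Just inside the rule, the shortest overlaps were 276 bp at an intergenic region whose nearest start site was that of TRIM27 and 639 bp at an intergenic region nearest to PROX1. Next came 840 bp, the full length of a region nearest to FOXD4L4. Just outside it, shCTR regions at the promoters of RXFP3 and ADAMTS6 and between genes nearest to FOXF1 lay 7, 192 and 101 bp from a shPHF19L#4 region. Each of these 3 regions had a replicate 2 peak or more in shPHF19L#4 cells and no replicate 1 peak. Of all 135 shCTR-only regions, 96 overlapped a shPHF19L#4 peak of replicate 2 alone, 13 of replicate 1 alone, 1 of both and 25 of neither.

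The number of shared regions rested on replicate 1. With replicate 2 peaks alone there were 16270 shared regions, and with replicate 1 peaks alone 1733. With a peak in either replicate there were 16635.

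The shared regions lay mostly at gene starts. A promoter, taken as 2.5 kb to each side of a start site of a protein-coding gene, was overlapped by 847 (63.3%), while 67 (5%) overlapped an exon elsewhere, 134 (10.0%) lay in introns and 291 (21.7%) between genes. A start site lay inside 789 (58.9%). Promoters were overlapped by 857 of 1825 shPHF19L#4-only regions (47.0%) and by 19 of 135 shCTR-only regions (14.1%). From midpoint to nearest start site, the median distance was 1077 bp in shared regions, 6582 bp in shPHF19L#4-only regions and 45704 bp in shCTR-only regions. No shared region lay on chromosome Y. Relative to length, chromosome 19 held 9.30 per 10 Mb, chromosome 14 held 8.85 and chromosome X held 1.55. Relative to protein-coding genes, the order differed, with 3.72 per 100 genes on chromosome 19, 15.4 on chromosome 14 and 2.76 on chromosome X. Of the 95 shared regions on chromosome 14, 54 lay in a single stretch that is described further on.

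The median shared region spanned 3619 bp, from 840 to 22959 bp, and together they covered 5.55 Mb. The 5 widest, by the mean length under MTF2 peaks in the 4 libraries, lay at genes for developmental transcription factors. PAX2, a regulator of kidney and urogenital development, had the widest, on chromosome 10 from 102494503 to 102517461. MTF2 peaks there spanned 18696 and 22959 bp in shCTR replicates 1 and 2, and 22028 and 30875 bp in shPHF19L#4 replicates 1 and 2. At FOXF1, a forkhead gene of lung and gut mesenchyme, the region on chromosome 16 from 86523292 to 86545918 had 4672 and 22627 bp under peaks in shCTR cells, and 26602 and 28049 bp in shPHF19L#4 cells. The homeobox gene ONECUT3, on chromosome 19 from 1746397 to 1768338, had 11628 and 21942 bp against 21681 and 22574 bp. These 3 regions were wider in shPHF19L#4 cells in each replicate, though the size of the difference was uneven. UNCX, a homeobox gene on chromosome 7 from 1272981 to 1289163, had 15500 and 16183 bp in shCTR cells against 15839 and 28542 bp. The LIM homeobox gene LHX2, on chromosome 9 from 126757620 to 126778631, had 17847 and 21012 bp against 8624 and 27758 bp, so that its replicates differed in direction.

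MTF2 peaks at the shared regions were wider in shPHF19L#4 cells in most cases. A peak that reached over neighbouring shared regions was counted in full for each. The median length under peaks was 2573 bp in shCTR replicate 1 and 3483 bp in shCTR replicate 2, and 3413 and 4751 bp in shPHF19L#4 replicates 1 and 2. In replicate 1, 1120 of 1339 regions (83.6%) were wider in shPHF19L#4 cells. Over all replicate 1 peaks that overlapped a peak of the other condition, the share was 78.4% counted from shCTR peaks and 73.4% counted from shPHF19L#4 peaks. In replicate 2, 1271 (94.9%) were wider, with 79.3% and 70.8% over all such peaks. Most MTF2 peaks with a partner were thus wider in shPHF19L#4 cells, and since the rule used both conditions nothing was read from the difference. Among shCTR peaks outside the shared regions, replicate 1 was close to even, with 52.1% of 336 peaks wider and a median ratio of 1.01. In replicate 2, 77.8% of 14861 such peaks were wider, with a median ratio of 1.33.

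Between replicates, 1064 regions (79.5%) were wider in shPHF19L#4 cells in both, 12 were narrower in both and 261 differed in direction. The other 2 had no replicate 1 peak of shPHF19L#4 cells over the shCTR region and no ratio. The ratio of lengths, shPHF19L#4 over shCTR, had a median of 1.22 in replicate 1, 1.30 in replicate 2 and 1.29 for the mean of both on the log2 scale. From the 10th to the 90th percentile, it ran from 0.931 to 1.96 in replicate 1 and from 1.03 to 2.24 in replicate 2. A ratio of at least 2 was seen in 131 regions in replicate 1 and 189 in replicate 2. The 2 replicates ranked the regions differently: Spearman's rho between their log2 ratios was 0.158 across 1337 regions, which share libraries and are not independent. Regions that were wider in shCTR cells tended to have lower ratios, with a rho of -0.23 in replicate 1 and -0.30 in replicate 2, in which the shCTR length enters both measures. Classes by width showed this in replicate 2 only. The 335 narrowest shared regions had median ratios of 1.19 in replicate 1 and 1.45 in replicate 2, and the 335 widest 1.24 and 1.20. The share wider in both replicates was 73.7% in the narrowest and 85.1% in the widest.

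**Figure D1:**
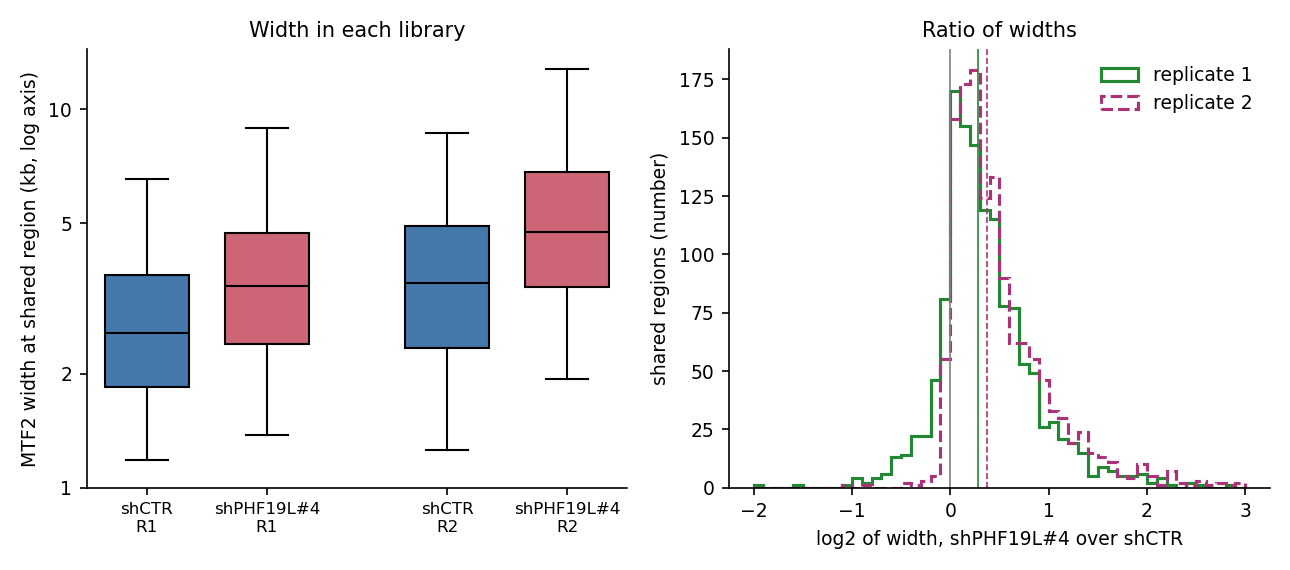
Left, length under MTF2 peaks at the 1339 shared regions in each library, in kb on a log axis (line, median; box, quartiles; whiskers, 5th to 95th percentile; R1 and R2, replicates; the 2 regions without a peak in shPHF19L#4 replicate 1 are not drawn there). Right, number of regions by the log2 ratio of lengths, shPHF19L#4 over shCTR, with values beyond the axis placed in the end bins; coloured vertical lines mark the medians, which correspond to ratios of 1.22 and 1.30, and the grey line marks equal length.

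The added length lay on both sides of most regions. In replicate 1, MTF2 peaks of shPHF19L#4 cells reached past those of shCTR cells on both sides in 795 of 1337 regions (59.5%), on 1 side in 466 and on neither in 76. In replicate 2, they did so on both sides in 1038 of 1339 (77.5%), on 1 side in 279 and on neither in 22. The extension was similar upstream and downstream of start sites. Over 761 regions with start sites of 1 strand only, the median extension was 266 bp upstream and 242 bp downstream in replicate 1, and 354 and 338 bp in replicate 2. More was added downstream than upstream in 49.5% and 50.3% of them.

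Among 1-to-1 pairs, the 5 regions that widened most, by the smaller of both replicates' ratios, lay near SCRT1, RBFOX3, UNCX, DISP3 and SYNDIG1L. At SCRT1, which encodes a neural zinc finger repressor, the promoter region on chromosome 8 from 145560289 to 145562865 had 2223 and 2548 bp under peaks in shCTR replicates 1 and 2, and 9559 and 9934 bp in shPHF19L#4 replicates 1 and 2. In an intron of RBFOX3, which encodes the neuronal splicing factor known as NeuN, the region on chromosome 17 from 77212839 to 77220912 had 1864 and 8074 bp against 6414 and 23154 bp. Upstream of UNCX, a small region on chromosome 7 from 1268742 to 1269882 had 893 and 1061 bp against 2528 and 7343 bp. This is the region of the CG-rich UNCX sequence printed above. The intergenic region nearest to DISP3, on chromosome 1 from 11629235 to 11631591, had 1032 and 2357 bp against 2720 and 7396 bp. SYNDIG1L, with a promoter region on chromosome 14 from 74887878 to 74893429, had 1297 and 5552 bp against 5483 and 14550 bp. All 5 were wider in shPHF19L#4 cells in each replicate, as the choice requires.

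Of the 12 regions that were narrower in both replicates, 4 are described here, near HYDIN, MEF2D, LTBP1 and ADAMTS6, and they are not a ranking by ratio. At an exon of HYDIN, which encodes a protein of motile cilia, the region on chromosome 16 from 71164736 to 71170540 had 5805 and 5332 bp under peaks in shCTR replicates 1 and 2, and 795 and 4179 bp in shPHF19L#4 replicates 1 and 2. In replicates 1 and 2, the ratios were 0.915 and 0.832 between genes nearest to MEF2D, a muscle and neuronal transcription factor, while the adjoining shared region was wider, with 3.56 and 1.92. The ratios were 0.799 and 0.932 at the promoter of LTBP1, which encodes a binding protein of latent TGF-beta, and 0.915 and 0.932 at that of ADAMTS6, an extracellular protease. The HYDIN region had a replicate 2 MACS score of 54.6 in shCTR cells, where the lowest score in the list is 50.

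Shared regions with PHF19 or PRC2 core subunits in shCTR cells had lower median ratios, given with no test. The 543 regions that overlapped a PHF19 region, called in both shCTR replicates, had a median ratio of 1.22, and the 796 without had 1.35. With an EZH2 region, defined in the same way, the median was 1.23 (456 regions), and without it 1.33 (883 regions). With SUZ12 it was 1.11 (61 regions), and without it 1.30 (1278 regions). The order was the same in each replicate for these 3 proteins. The share wider in both replicates was higher with PHF19 (81.4% against 78.1% without) and with EZH2 (83.6% against 77.3%), but lower with SUZ12 (72.1% against 79.8%). Over promoters the median ratio was 1.28, with 84.2% wider in both replicates, and elsewhere 1.33, with 71.3%. The replicates disagreed on promoters, since the ratio over promoters was 1.23 against 1.20 elsewhere in replicate 1 and 1.25 against 1.41 in replicate 2.

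**Figure D2:**
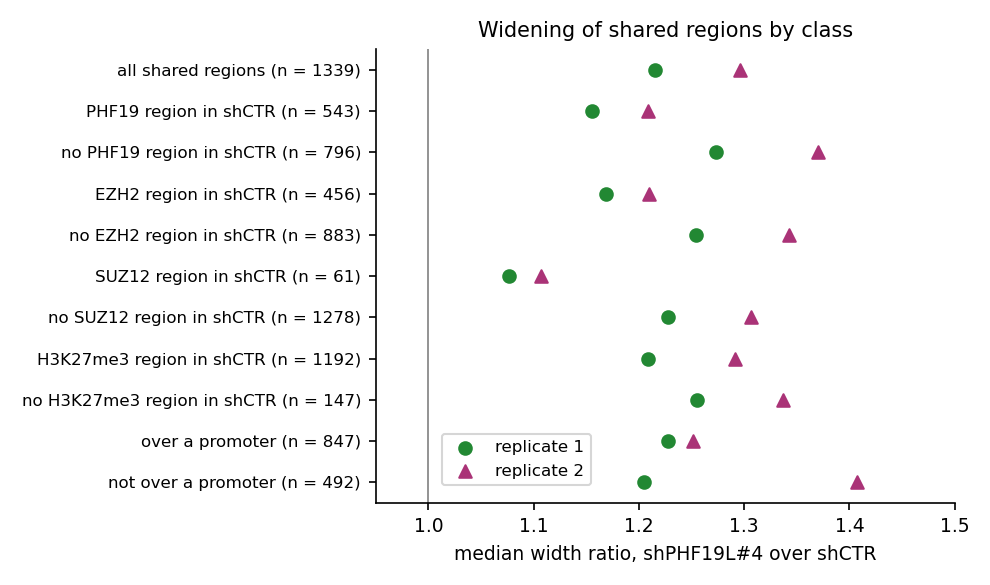
Median ratio of length under MTF2 peaks, shPHF19L#4 over shCTR, in classes of the 1339 shared regions (circles, replicate 1; triangles, replicate 2; n, number of regions; the grey line marks a ratio of 1). A class with a protein or mark holds the shared regions that overlap its regions called in both shCTR replicates; the 61 regions with SUZ12 have the lowest medians in both replicates.

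Around 1-to-1 pairs, the shPHF19L#4 regions added 2175 stretches that together measured 1.82 Mb. By definition these lie outside the MTF2 regions of shCTR cells, so their contrast with the shared regions is partly set by the rule. These stretches held few CG dinucleotides, a median of 1.19 per 100 bases over the 1808 stretches of at least 100 bp. In shCTR cells, EZH2 peaks covered 3.13% and 3.29% of the added length in replicates 1 and 2, against 33.7% and 41.7% of the shared regions that they flank. PHF19 peaks of shCTR cells covered 1.32% and 11.0% of the added length, against 25.6% and 55.9% of those regions. For SUZ12 the values were 1.61% and 0.109% against 6.50% and 7.87%. H3K27me3 was already broad there in shCTR cells, with 78.7% and 42.4% of the added length under its peaks. In shPHF19L#4 cells it covered 76.6% and 90.2%.

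The MACS score, which grows with the evidence for a peak, was higher in shPHF19L#4 cells at most shared regions. For MTF2 it is listed in replicate 2 only. Its median over the shared regions was 1376 in shCTR cells and 3100 in shPHF19L#4 cells, against 72.0 and 86.4 over all replicate 2 peaks. The score has a ceiling near 3100, and 300 regions (22.4%) were at 3000 or more in shCTR cells and 822 (61.4%) in shPHF19L#4 cells. Of all shared regions, 1038 (77.5%) scored higher in shPHF19L#4 cells. Over all replicate 2 peaks that overlapped a peak of the other condition, the share was 80.5% counted from shCTR peaks and 76.3% counted from shPHF19L#4 peaks. Of the 1039 shared regions under 3000 in shCTR cells, 1025 (98.7%) scored higher, with 82% and 77.9% over all such peaks. The rule used both conditions, so nothing was read from these differences. With 1 library of each condition, this has no replicate check. The shPHF19L#4-only regions had a median of 1119 in shPHF19L#4 cells, and the shCTR-only regions a median of 86.8 in shCTR cells.

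In shCTR cells, most shared regions overlapped H3K27me3 and fewer overlapped called PHF19, EZH2 or SUZ12 regions. H3K27me3 regions, with a peak in both replicates, overlapped 1192 of the 1339 (89.0%), where 75.5% of all MTF2 regions of either condition had one. PHF19 regions overlapped 543 (40.6%), against 20.9% of all MTF2 regions, and EZH2 regions 456 (34.1%), against 14.8%. SUZ12 regions overlapped 61 (4.56%), against 1.87%. At the shPHF19L#4-only regions, the shares were 66.8% for H3K27me3, 7.56% for PHF19, 1.75% for EZH2 and 0 for SUZ12. All 4 shares were thus higher at shared regions than at regions called in shPHF19L#4 cells alone, with no test since regions are not replicates. The SUZ12 lists are short, with 1523 and 232 peaks, and a region without a called peak may still hold signal under the threshold.

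Single libraries gave other shares. PHF19 peaks lay at 549 shared regions (41.0%) in replicate 1 and 1098 (82.0%) in replicate 2. EZH2 peaks lay at 46.4% and 59.4%, SUZ12 peaks at 11.2% and 14.2%, and H3K27me3 peaks at 95.5% and 89.8%. Over all MTF2 regions of either condition, the shares in replicates 1 and 2 were 21.5% and 61.3% for PHF19, 23.6% and 32.3% for EZH2, 6.22% and 6.09% for SUZ12, and 86.2% and 78.5% for H3K27me3. PHF19 thus depended on its replicate 1 list of 1072 peaks, and the EZH2 and SUZ12 replicates marked partly separate sets of shared regions. With MACS scores of at least 100, EZH2 regions overlapped 20.1% and SUZ12 regions 1.79%.

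**Figure D3:**
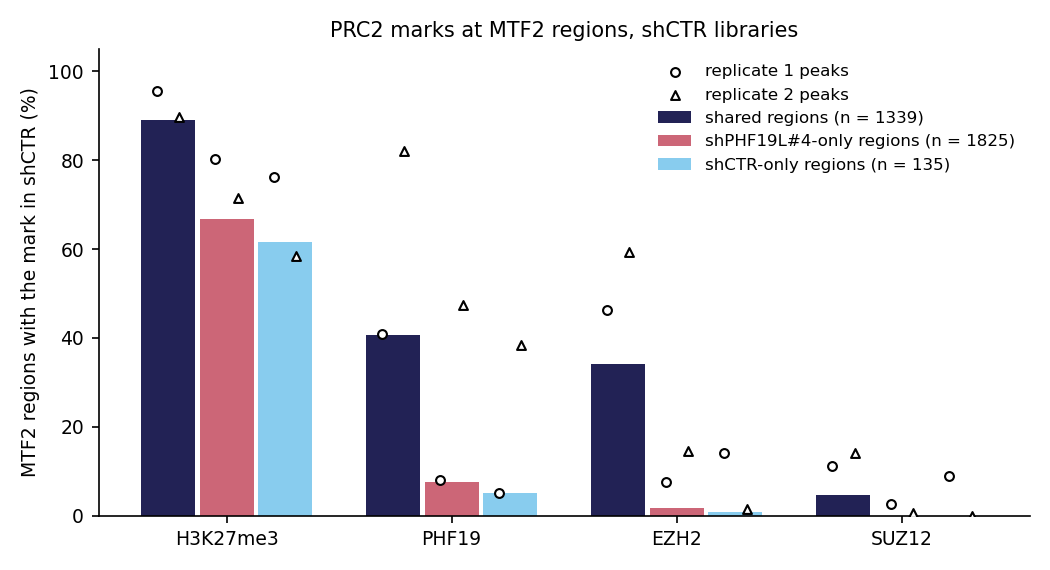
Share of MTF2 regions, in percent, that overlap a region of H3K27me3, PHF19, EZH2 or SUZ12 called in both shCTR replicates (bars), and that overlap a peak of replicate 1 (circles) or replicate 2 (triangles) alone. Bars are the 1339 shared regions, the 1825 shPHF19L#4-only regions and the 135 shCTR-only regions; PHF19 peaks lie at 41.0% and 82.0% of shared regions in the 2 replicates.

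Counted from the other side, the shared regions took in most called PRC2 regions of shCTR cells. Of 500 EZH2 regions, 465 (93.0%) overlapped one, as did all 62 SUZ12 regions. Of 798 PHF19 regions, 558 (69.9%) overlapped one. Of 9256 H3K27me3 regions, 1135 (12.3%) did, and their median width was 6883 bp against 4419 bp for all. Peaks at shared regions also scored higher within their own lists: the median MACS score of EZH2 peaks was 111 and 198 in replicates 1 and 2, against 74.7 and 140 over all EZH2 peaks. For H3K27me3 in shCTR cells it was 529 and 339, against 110 and 89.7.

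In combination, H3K27me3 without PHF19, EZH2 or SUZ12 was the most frequent state, at 583 shared regions (43.5%), and it was more frequent still over all 3265 MTF2 regions of either condition (52.9%). PHF19, EZH2 and H3K27me3 together marked 291 (21.7%, against 9.56% of all MTF2 regions), PHF19 and H3K27me3 12.5% (8.21%), and EZH2 and H3K27me3 90 (6.72%, against 2.94%). All 4 marked 59 (4.41%, against 1.81%), among them ATF3, PAX2 and BMP4. None of the 4 was called in both replicates at 117 (8.74%), against 584 of 1825 shPHF19L#4-only regions (32.0%) and 23% of all MTF2 regions. When single peaks in any of the shCTR lists of PHF19, EZH2 and SUZ12 or the H3K27me3 lists of both conditions were counted, 2 shared regions (0.149%) had none, against 37 of all 3265 MTF2 regions (1.13%). The first, at the promoter of NALF2 on chromosome X from 68724118 to 68725570, had a replicate 2 MACS score of 208 in shCTR cells and 986 in shPHF19L#4 cells, and its window printed above held 40 CG dinucleotides. It overlapped an EZH2 region of the differential binding tables, with a mean log2 concentration of 3.2 in shCTR cells. Those tables list EZH2 regions selected on the difference between conditions, so the conditions are not compared here. The other, on chromosome 14 from 36481308 to 36488834, had its midpoint 182864 bp away from any start site, with BRMS1L as the nearest gene. Its length under MTF2 peaks was 3477 and 6649 bp in shCTR replicates 1 and 2, and 4411 and 3614 bp in shPHF19L#4 replicates 1 and 2.

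Among the peak lists analysed, those of H3K27me3 were not used to choose the regions and covered both conditions, and their values overlapped between conditions. An H3K27me3 peak overlapped 95.5% and 89.8% of the shared regions in shCTR replicates 1 and 2, and 90.2% and 95.3% in shPHF19L#4 replicates 1 and 2. Over all 3265 MTF2 regions of either condition, the shares were 86.2%, 78.5%, 85.9% and 94.4% in the same order. The groups overlapped at the shared regions. The mean was 92.6% ± 4.07 (SD, n = 2) in shCTR cells and 92.8% ± 3.59 (SD, n = 2) in shPHF19L#4 cells, a difference of 0.112 percentage points (two-sided exact permutation p = 1). The mean share of a region's length under H3K27me3 peaks was 92.4% and 72.6% in shCTR replicates 1 and 2, and 88.1% and 93.4% in shPHF19L#4 replicates 1 and 2. Here shCTR replicate 2 was the lowest, and the groups overlapped again. The means were 82.5% ± 13.98 (SD, n = 2) and 90.8% ± 3.73 (SD, n = 2), a difference of 8.29 percentage points, within the spread between shCTR replicates (two-sided exact permutation p = 0.667). With 2 libraries against 2, the smallest p that the permutation test allows is 0.333, so that no difference could pass a threshold of 0.05. The direction turned with the replicate: without replicate 2, the differences were -5.30 and -4.23 percentage points.

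An H3K27me3 peak was found in all 4 libraries at 1081 shared regions (80.7%) and in none at 6, while 67.4% of all MTF2 regions had it in all 4. The next most frequent patterns were a peak in all but shCTR replicate 2, at 70 regions, and in all but shPHF19L#4 replicate 1, at 63. The latter group, picked after its values were seen, lay in wider H3K27me3 peaks, least so in shCTR replicate 2. Its median H3K27me3 peak in shCTR replicate 1 spanned 15466 bp, against 6720 bp for regions with the mark in all libraries, in shCTR replicate 2 it spanned 4799 bp against 3417 bp, and in shPHF19L#4 replicate 2 it spanned 21717 bp against 8294 bp. It included regions at FOXF1, UNCX, SOX2, GATA4, NKX2-3 and NEUROD2. At the FOXF1 region, H3K27me3 covered 99.8% and 93.1% in shCTR replicates 1 and 2, but 0 and 100% in shPHF19L#4 replicates 1 and 2.

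**Figure D4:**
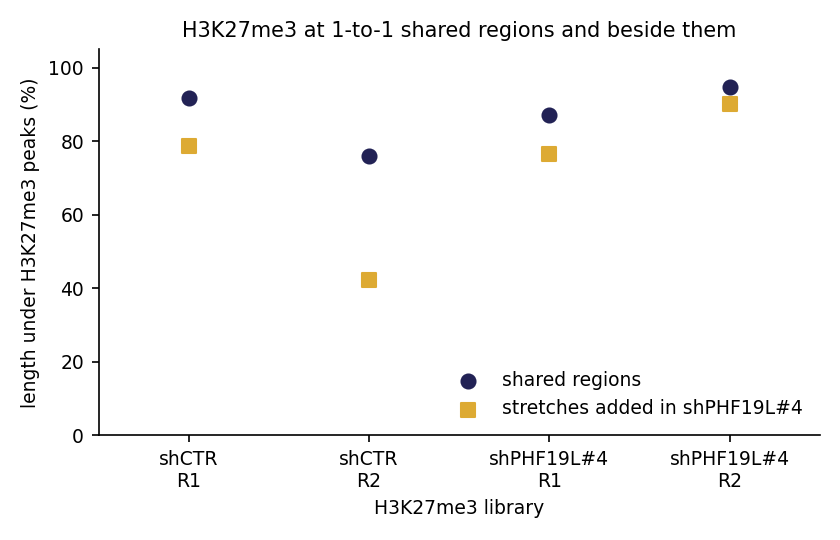
Share of length under H3K27me3 peaks, in percent, in each H3K27me3 library (R1 and R2, replicates), for the shared regions in 1-to-1 pairs (circles) and for the stretches that shPHF19L#4 MTF2 regions added beside them (squares). On the added stretches the values are 78.7% and 42.4% in shCTR cells and 76.6% and 90.2% in shPHF19L#4 cells, so that the groups overlap.

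The target genes of the shared regions included many developmental regulators. A target was any protein-coding gene with a shared region in its target interval, from 2.5 kb before the start to the end of the gene, and 971 of 20163 genes (4.82%) were targets, while 1140 (5.65%) had a shPHF19L#4-only region. Of the shared regions, 943 had 1 target, 97 had 2 and 292 had none. Homeobox genes outside the HOX clusters, which specify position and cell fate, were targets in 57 of 125 cases (45.6%), at 70 shared regions. Of these 70, 64 were wider in shPHF19L#4 cells in both replicates, 69 overlapped an H3K27me3 region of shCTR cells, 44 a PHF19 region and 37 an EZH2 region. Over all 1339 shared regions, these shares were 79.5%, 89.0%, 40.6% and 34.1%. For example, at NKX2-3 the region on chromosome 10 from 101291294 to 101299958 had 5652 and 8665 bp under MTF2 peaks in shCTR replicates 1 and 2, and 8172 and 12528 bp in shPHF19L#4 replicates 1 and 2. At MSX2, a homeobox gene of limb and skull development, the region on chromosome 5 from 174146909 to 174149749 had 2154 and 2841 bp against 2846 and 7827 bp. Both were wider in shPHF19L#4 cells in each replicate. HOX cluster genes, by contrast, were near the share of all genes: HOXD3 and HOXD13 were targets, 2 of 39 (5.13%), and 6 others had a shPHF19L#4-only region.

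Other families of transcription factors were represented to varying degrees. PAX genes, paired-box regulators of organ formation, were targets in 6 of 9 cases (66.7%), all but PAX1, PAX8 and PAX9. Of 6 GATA genes, which direct blood, heart and endoderm fates, 3 were targets, at 5 regions that were all wider in shPHF19L#4 cells in both replicates, with a median ratio of 1.76. Over all shared regions, 79.5% were wider in both replicates and the median ratio was 1.29, and 3 of the 5 regions belonged to GATA4, of which 2 were not in 1-to-1 pairs. One of the 3 GATA4 regions, not in a 1-to-1 pair, lay at the promoter on chromosome 8 from 11548520 to 11553762. MTF2 peaks there spanned 2067 and 5243 bp in shCTR replicates 1 and 2, and 5036 and 21996 bp in shPHF19L#4 replicates 1 and 2. These lengths count in full any peak that also reached over a neighbouring shared region. GATA3, on chromosome 10 from 8083350 to 8097595, had 11318 and 14246 bp against 14560 and 14715 bp. SOX genes, regulators of stem and progenitor cells, were targets in 9 of 20 cases (45%), with a median ratio of 1.14. SOX2, on chromosome 3 from 181427257 to 181431661, had 4164 and 4405 bp against 4585 and 4465 bp. Neural basic helix-loop-helix genes, which drive neuronal differentiation, were targets in 10 of 24 cases (41.7%) and all 10 regions overlapped an H3K27me3 region of shCTR cells. Of 44 forkhead genes, 12 (27.3%) were targets, and so did 13 of 13 of their regions, where 89.0% of all shared regions did. Of 17 T-box genes, TBX1 was the only target (5.88%), near the 4.82% of all protein-coding genes.

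Ligands of developmental signalling pathways were also targets. WNT ligands had a shared region in 8 of 19 cases (42.1%), at 9 regions. All 9 were wider in shPHF19L#4 cells in both replicates, as were 79.5% of all shared regions. The share was below 79.5% at regions of PAX (7 of 9), forkhead (9 of 13), SOX (6 of 9) and BMP genes (6 of 8). It was also below at FGF ligands (3 of 5) and dual-specificity phosphatases (2 of 3), and above in the other families and pathways with shared regions. At WNT9B, on chromosome 17 from 44927437 to 44930618, MTF2 peaks spanned 2642 and 3164 bp in shCTR replicates 1 and 2, and 5036 and 7081 bp in shPHF19L#4 replicates 1 and 2. Frizzled receptors and secreted WNT antagonists, which receive or block the same signal, were targets in 2 of 20 cases (10.0%), FZD8 and SFRP5. BMP ligands and antagonists were targets in 8 of 28 cases (28.6%), Hedgehog pathway genes in 5 of 14 (35.7%) and Notch pathway genes in 5 of 19 (26.3%). The Hedgehog targets included all of the ligands SHH, IHH and DHH, and GLI3, a transcription factor of the pathway with 4 shared regions. FGF ligands were targets in 5 of 22 cases (22.7%), and ephrins and Eph receptors, which mediate contact between cells, in 4 of 22 (18.2%). Of dual-specificity phosphatases, which dampen MAP kinase signalling, DUSP4 and DUSP8 were targets, 2 of 10 (20%).

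Of 18 genes for PRC1, the second Polycomb complex, 16.7% were targets. BMI1 and CBX8 were among them, and each had a PHF19 region in shCTR cells. CBX8, which encodes a reader of H3K27me3, had a region on chromosome 17 from 77771219 to 77787867 with 15648 and 16649 bp under MTF2 peaks in shCTR replicates 1 and 2, and 16083 and 20097 bp in shPHF19L#4 replicates 1 and 2. None of 13 PRC2 subunit genes was a target, and EPOP had a shPHF19L#4-only region. With 4.82% of all protein-coding genes as targets, a list of 13 is too short for none to stand out. None of 77 genes for cytosolic ribosomal proteins, which are active in all dividing cells, was a target.

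**Figure D5:**
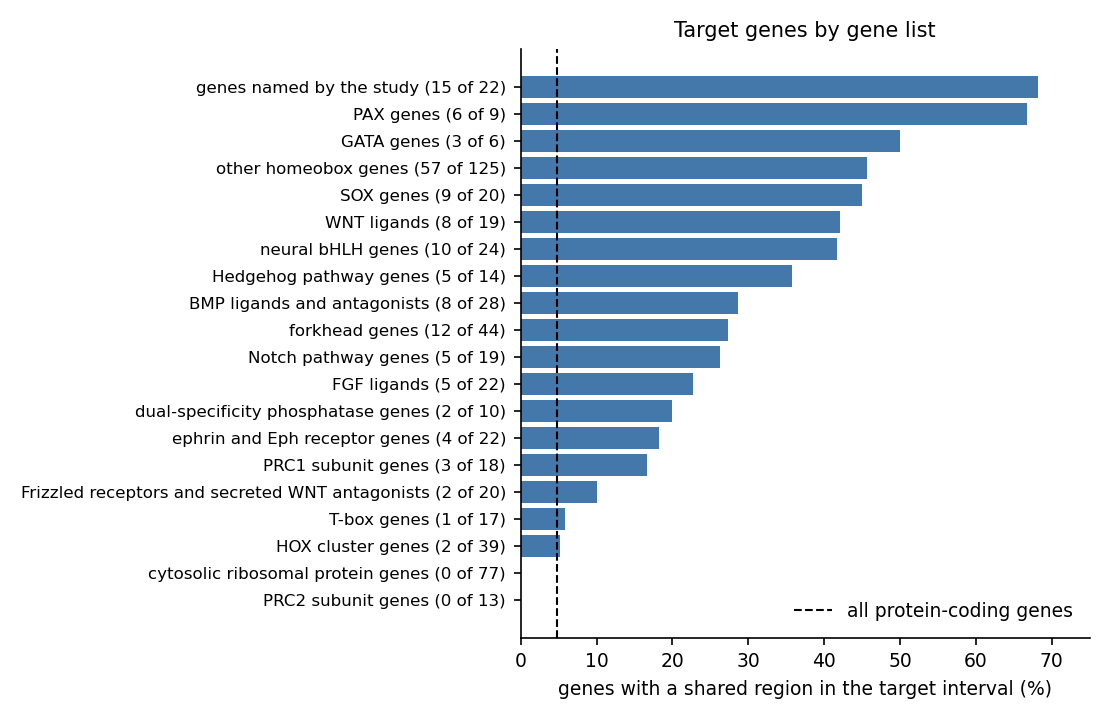
Share of genes, in percent, with a shared region between 2.5 kb upstream of the start and the end of the gene, for 20 gene lists (bars, with targets and list size in brackets). The dashed line marks 4.82%, the share over 20163 protein-coding genes; PAX genes reach 66.7% and HOX cluster genes 5.13%.

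Of 22 genes picked from the text of the study, its ChIP-qPCR primers and earlier descriptions of these data, 15 (68.2%) were targets. The list is not complete, and many of its genes were chosen on the same cells, so the share is not independent evidence. Their 19 regions had a median ratio of 1.16, and 12 were wider in shPHF19L#4 cells in both replicates, while 17 overlapped a PHF19 region of shCTR cells, 15 an EZH2 region, 6 a SUZ12 region and 18 an H3K27me3 region. Over all shared regions, the median ratio was 1.29, 79.5% were wider in both replicates, and the shares with these marks were 40.6%, 34.1%, 4.56% and 89.0%. At ATF3, a transcription factor induced by stress, the region on chromosome 1 from 212777360 to 212783656 had 6013 and 6285 bp under MTF2 peaks in shCTR replicates 1 and 2, and 6992 and 7216 bp in shPHF19L#4 replicates 1 and 2. Both regions of IGF2BP3, which encodes an RNA-binding protein of fetal tissue and tumours, kept nearly the same length. The one over the start, on chromosome 7 from 23506604 to 23511935, had 5209 and 5332 bp against 5292 and 5449 bp. H3K27me3 covered all of both IGF2BP3 regions in all 4 libraries. The forkhead gene FOXI3, on chromosome 2 from 88750285 to 88753837, had 3506 and 3373 bp against 3219 and 4773 bp, so that its replicates differed in direction.

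Several of these genes encode signalling molecules. SHH, on chromosome 7 from 155600162 to 155607264, had 5789 and 7103 bp under MTF2 peaks in shCTR replicates 1 and 2, and 7622 and 11729 bp in shPHF19L#4 replicates 1 and 2. WNT7A, on chromosome 3 from 13918156 to 13923079, had 4664 and 4924 bp against 5581 and 6908 bp. CXCR4, the chemokine receptor for CXCL12, on chromosome 2 from 136873628 to 136877606, had 3849 and 3700 bp against 3887 and 5790 bp. All 3 were wider in shPHF19L#4 cells in each replicate, by little for CXCR4 in replicate 1. The 2 regions of DUSP4 fell under 1 shPHF19L#4 peak of 8034 bp in replicate 2, so that their ratios there, 2.33 and 2.09, count that peak for each. In replicate 1 their ratios were 1.11 and 0.966, so that the replicates of the second region differed in direction. EPHB3, an Eph receptor tyrosine kinase, was the only one of the 15 without an H3K27me3 peak in shCTR cells. Its region on chromosome 3 from 184279250 to 184282461 had an H3K27me3 peak in shPHF19L#4 replicate 2 alone, over 62.3% of its length. In shCTR cells it had a PHF19 peak in 1 replicate and no EZH2 or SUZ12 peak. It did overlap an EZH2 region of the differential binding tables, with a mean log2 concentration of 5.46 in shCTR cells. EZH2 and SUZ12 peaks of shPHF19L#4 cells were not analysed.

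For EFNA3, IGFBP3, BMP4, CYP24A1 and HEY1, the ratios in replicates 1 and 2 lay close to 1 or above. EFNA3, which encodes an ephrin ligand, had 1.19 and 1.07 on chromosome 1 from 155049606 to 155058903. IGFBP3, a carrier of insulin-like growth factors, had 1.23 and 1.01 on chromosome 7 from 45957203 to 45962974. In these 2 the replicates shared a direction, and in the next 3 they did not. BMP4, on chromosome 14 from 54419030 to 54425253, had 1.09 and 0.971. CYP24A1, the enzyme that breaks down active vitamin D, had 1.02 and 0.974 on chromosome 20 from 52786262 to 52792007. HEY1, a transcription factor downstream of Notch, had 1.01 and 0.962 on chromosome 8 from 80677031 to 80681297. EGLN3, a prolyl hydroxylase that acts on hypoxia-inducible factors, had 3 regions, described with the dense stretch of chromosome 14 in which they lay.

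MLLT6, GATA2, NDRG2, LOX, ADM, HMGA2 and SOX9 had no shared region. GATA2 is on the list because the study used it as a negative control site for ChIP-qPCR. MLLT6, NDRG2 and LOX, the gene of the collagen crosslinking enzyme lysyl oxidase, each had 1 shPHF19L#4-only region. Each had no replicate 1 peak in shCTR cells and 1 in shPHF19L#4 cells, while replicate 2 held peaks in both conditions. GATA2, ADM and SOX9 had replicate 2 peaks in both conditions and no replicate 1 peak. HMGA2, a gene for an architectural chromatin protein, had 1 peak in each shCTR replicate, which did not make a region, and 2 peaks in shPHF19L#4 replicate 2 alone.

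Some shared regions lay in groups. With gaps of up to 50 kb, the 1339 formed 1078 groups, of which 931 were single regions and 44 held 3 or more. A group of 6 lay on chromosome 3 from 181412393 to 181447929 around SOX2. Another of 5, on chromosome 2 from 219823732 to 219927514, took in CDK5R2, CFAP65, CRYBA2, FEV and IHH. ADAMTS12 had 12 shared regions and TRPM3 had 7.

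The densest stretch, picked after its values were seen as the only windows of 1 Mb with 20 or more shared regions, lay on chromosome 14 from 33 to 35 Mb. It held 54 of the 1339 (4.03%), and NPAS3, which encodes a neuronal transcription factor, had 50 shared regions in its target interval. The same 2 Mb held 8.59% of MTF2 peaks in shCTR replicate 1 and 0.378% in shCTR replicate 2, and 4.41% and 0.439% in shPHF19L#4 replicates 1 and 2. It held 12.1% of EZH2 peaks and 14.5% of SUZ12 peaks in replicate 1, and 0.0809% and 0 in replicate 2. Of PHF19 peaks, it held 1.96% in replicate 1 and 0.668% in replicate 2. Its share of peaks was thus higher in replicate 1 than in replicate 2, most so for MTF2, EZH2 and SUZ12 and less so for PHF19. For H3K27me3 the shares were 0.311% and 0.238% in shCTR replicates 1 and 2, and 0.336% and 0.0964% in shPHF19L#4 replicates 1 and 2. These shares were not set against the length of the stretch, so an excess in replicate 2 is not excluded. Without it, 1285 shared regions remained, of which 80.5% were wider in both replicates. Its 54 regions had a median replicate 2 MACS score of 121 in shCTR cells, against 1436 for the others. Of them, 5 (9.26%) overlapped a promoter, 26 (48.1%) had H3K27me3 and 29 (53.7%) were wider in shPHF19L#4 cells in both replicates, against 65.5%, 90.7% and 80.5% of the others. The EGLN3 regions there showed both directions. In the intron, on chromosome 14 from 34648453 to 34653818, MTF2 peaks spanned 4761 and 4270 bp in shCTR replicates 1 and 2, and 2429 and 5248 bp in shPHF19L#4 replicates 1 and 2. At the promoter, from 34691617 to 34693845, they spanned 2223 and 2032 bp against 4949 and 6022 bp, and the shPHF19L#4 peaks also covered the neighbouring region from 34687002 to 34690932.

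Tables of differential binding, which list regions selected on the difference between conditions or from input, gave mean read concentrations on the log2 scale, with no value per replicate. Of the shared regions, 1132 (84.5%) overlapped a listed MTF2 region, 1099 (82.1%) a listed EZH2 region, 719 (53.7%) a listed PHF19 region, 436 (32.6%) a listed SUZ12 region and 40 (2.99%) a listed H3K27me3 region. Over all MTF2 regions of either condition, these shares were 72.8%, 60.8%, 29%, 14.8% and 8.33%. In shCTR cells, the median MTF2 concentration was 8.28 in listed regions over shared regions and 6.89 in those elsewhere. For EZH2 it was 6.86 against 5.69, and for SUZ12 6.12 against 5.6. Listed EZH2 and SUZ12 regions at shared regions thus had higher mean concentrations than the rest of their tables, with no test. For MTF2, whose peaks selected the shared regions, nothing was read from the difference. Since the tables hold only regions picked for their difference, the conditions were not compared in them.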

How the data were processed

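The authors mapped the ChIP-seq reads with Bowtie to hg19 (GRCh37), with the fly genome added for spike-in samples, keeping reads with a unique position, and called peaks with MACS for every replicate against its control. The score is the MACS peak score as deposited by the authors. It is not scaled between libraries, and the replicate 1 lists of MTF2 and PHF19 hold none. The log2 values are group means of read concentration that the authors made with DiffBind over these peaks. The DiffBind tables also hold the authors' fold, P value and FDR for each listed region, which were not used. Neither peaks nor concentrations were scaled by the spike-in as far as the methods say. Both 3-column MTF2 lists of replicate 1 count starts from 1 and were read so.

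From these 14 peak lists and 5 tables, regions, overlaps, lengths and CG content were computed with Python 3.11.15, numpy 2.4.6, scipy 1.17.1, pysam 0.24.0 and samtools 1.23.1, and plotted with matplotlib 3.10.9. Overlap counting was tested on simulated data. The length of a shared region in a library was the length of that library's peaks that overlap it, each taken whole. Genes were the 20163 protein-coding genes of GENCODE release 44 on GRCh37, and a region between genes is named by its nearest start site. H3K27me3 was compared over 4 libraries with an exact permutation test. Members and gene lists were chosen with earlier results of these data known. Named were 22 genes from the text of the study, its ChIP-qPCR primers and earlier descriptions of these data, the 5 widest regions, the 5 that widened and the 5 that narrowed most among 1-to-1 pairs, regions without marks, examples of each list with the largest share under H3K27me3 in shCTR cells, and 3 regions at each side of the rule, though not every gene or region so named is described. The sides of widening, the added stretches, the classes, the groups and CG content were described in addition. Alternatives were single replicates, either replicate, a MACS score of at least 100, 50% coverage, other definitions of length, pair, promoter, target and table, and autosomes. Read depth is unknown, so no counting error is given.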

Additional observations from a re-analysis of the deposited data

How the results depend on the processing

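Of 62 alternatives to 11 results, 39 were counted as unchanged, 21 as moved and 2 as turned in direction. The ratio and the shares wider or with a mark counted as unchanged within the spread between replicates. The promoter share did so within a binomial confidence interval that treats regions as independent. Counts did so within a fixed factor, so that 1733 shared regions against 1339 counted as unchanged. The differences in H3K27me3 were judged by their sign alone, whatever their size. With a peak in either replicate, there were 16635 shared regions, and PHF19, EZH2, SUZ12 and H3K27me3 regions overlapped 82.3%, 71.7%, 20.8% and 98.6% of the 1339. With MACS scores of at least 100, EZH2, SUZ12 and H3K27me3 overlapped 20.1%, 1.79% and 80.0%. With 50% of the length covered, SUZ12 overlapped 2.32%. The mean ratio of lengths was 1.35, 54.7% were wider by at least 10% in both replicates, and 58.3% had their midpoint in a promoter. With each replicate left out in turn, the number of shared regions ran from 1733 to 16270, the share wider from 83.6% to 94.9% and the ratio from 1.22 to 1.30. The shares with a mark ran from 41.0% to 82.0% for PHF19, 46.4% to 59.4% for EZH2, 11.2% to 14.2% for SUZ12 and 89.8% to 95.5% for H3K27me3. The fewer replicates required, the more regions counted. The difference in H3K27me3 peaks ran from -5.30 to 5.53 percentage points and that in covered length from -4.23 to 20.8, negative without replicate 2, and the cause was not tested.

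With the replicate block, in which replicates share a number only, the differences stayed 0.112 and 8.29 percentage points, with an exact sign-flip p = 1 for both, where 2 pairs allow no p below 0.5. Chosen after seeing the data were the removal of the dense stretch of chromosome 14 and lengths over the joined regions of both conditions. Without the stretch, 80.5% were wider in both replicates and the ratio was 1.29. Over joined regions the values were 76.9% and 1.24. Unknown depth limits what a missing peak means.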
